A study of Saccharomyces cerevisiae with 18 samples.

Results

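The 10 genes described here encode enzymes and a permease of sulfur amino acid metabolism in Saccharomyces cerevisiae, and were chosen by name from the 6205 open reading frames (ORFs) in the deposited values. They are MET3 (YJR010W), MET14 (YKL001C), MET16 (YPR167C) and MET10 (YFR030W) of sulfate reduction, MET2 (YNL277W) and MET6 (YER091C) of methionine synthesis, CYS4 (YGR155W), CYS3 (YAL012W) and STR3 (YGL184C) of transsulfuration, and MUP1 (YGR055W), a methionine permease. All 10 had a value on all 18 arrays. Budding yeast takes up sulfate, activates it, reduces it to sulfide and fixes the sulfide into homocysteine, from which methionine, S-adenosylmethionine, cysteine and glutathione are made. Many of these genes are transcribed by Met4, which reaches DNA through Cbf1 or through Met31 and Met32, and which the ubiquitin ligase subunit Met30 holds in check when methionine or cysteine is plentiful.

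The mutant strains were a dot4 null (UCC6390), a ubp8 null (UCC6392) and a dot4ubp8 null that lacks both genes (UCC6393), each set against the wild type strain UCC6389 in total RNA from cells grown in YEPD, a rich medium that contains amino acids. DOT4 is listed in the gene table used here under its other name UBP10. Dot4 and Ubp8 are ubiquitin proteases that act on histone H2B, Ubp8 as a part of the SAGA coactivator. Each genotype had 6 arrays in 3 numbered sets, and the 2 arrays of a set carried the null RNA in opposite channels. Of the 6 dot4ubp8 null arrays, 1 array of set 3 bears the strain number UCC6392, the number of the ubp8 null, beside the genotype name of the dot4ubp8 null.

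Values are log2 of null over wild type, after each array was centred on its median. The labels do not state which channel was divided by which, so the direction rests on the deleted genes, and taking the channels in label order would turn every sign. Under the direction used, UBP10 averaged -5.06 ± 0.08 in dot4 null cells and -4.70 ± 0.08 in dot4ubp8 null cells (n = 3 set means). UBP8 averaged -2.94 ± 0.09 in ubp8 null cells and -2.94 ± 0.09 in dot4ubp8 null cells. Errors here and below are standard errors of the limma fit unless stated. That fit pools the spread of an ORF over all 9 set means and moderates it across ORFs. A gene thus has the same error in all 3 genotypes, which does not show the spread of its own 3 sets. A gene is said to be called, or to have risen or fallen, where the limma fit over all 6205 ORFs gave a Benjamini-Hochberg adjusted p under 0.05. Whether the sets were separate cultures is not stated in the labels. The p-values thus cover the spread among these arrays, which may be technical. All 3 genotypes were measured against the same wild type strain, which makes their ratios dependent on each other. Across all ORFs, arrays of 1 genotype with the same orientation correlated at 0.86 to 0.95 in dot4 null cells, 0.54 to 0.91 in ubp8 null cells and 0.85 to 0.94 in dot4ubp8 null cells, while arrays of opposite orientation correlated at 0.29 to 0.49, 0.24 to 0.58 and 0.68 to 0.81. A ratio of total RNA cannot tell less transcript per cell from a changed mixture of cells in the culture.

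In the dot4 null, 8 of the 10 genes fell, MET2 rose and MET3 was not called. In the ubp8 null 5 fell (MET10, MET6, CYS3, CYS4 and MUP1), none rose and 5 were not called. In the dot4ubp8 null 8 fell, STR3 rose and MET2 was not called. Among all ORFs, 62% were called in dot4 null cells (32.1% lower, 29.9% higher), 58.7% in ubp8 null cells (28.7% lower, 30% higher) and 70.5% in dot4ubp8 null cells (35.2% lower, 35.3% higher). The median of the 10 genes was -0.17 in dot4 null cells, -0.10 in ubp8 null cells and -0.40 in dot4ubp8 null cells, beside medians over all ORFs of -0.01, 0.00 and 0.00. Without the centring of arrays, 4 of the 10 fell in dot4 null cells (MET6, CYS3, CYS4 and MUP1). In ubp8 null cells 3 fell (CYS3, CYS4 and MUP1), and in dot4ubp8 null cells 7 (all but MET3 of the 8). The calls over all ORFs in dot4 null cells then split into 1805 higher and 563 lower, against 1857 and 1993 with centring. Their median there was 0.08 without centring. In ubp8 null cells 778 ORFs were called higher and 804 lower without centring, against 1863 and 1779 with it. In dot4ubp8 null cells these were 1531 and 1429, against 2189 and 2186. The ubp8 null median also depended on a single set, since without its set 1 it was -0.06.

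Most of these changes were small. A change of at least 1.5-fold occurred for MET6 in dot4 null cells, for no member in ubp8 null cells, and for MET6, CYS4 and MUP1 in dot4ubp8 null cells, all of them decreases. Over all ORFs, decreases of that size made up 0.951% in dot4 null cells, 0.338% in ubp8 null cells and 1.95% in dot4ubp8 null cells. CYS3 (1.499-fold lower) and STR3 (1.492-fold higher) in dot4ubp8 null cells fell just short of that size.

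**Figure D1:**
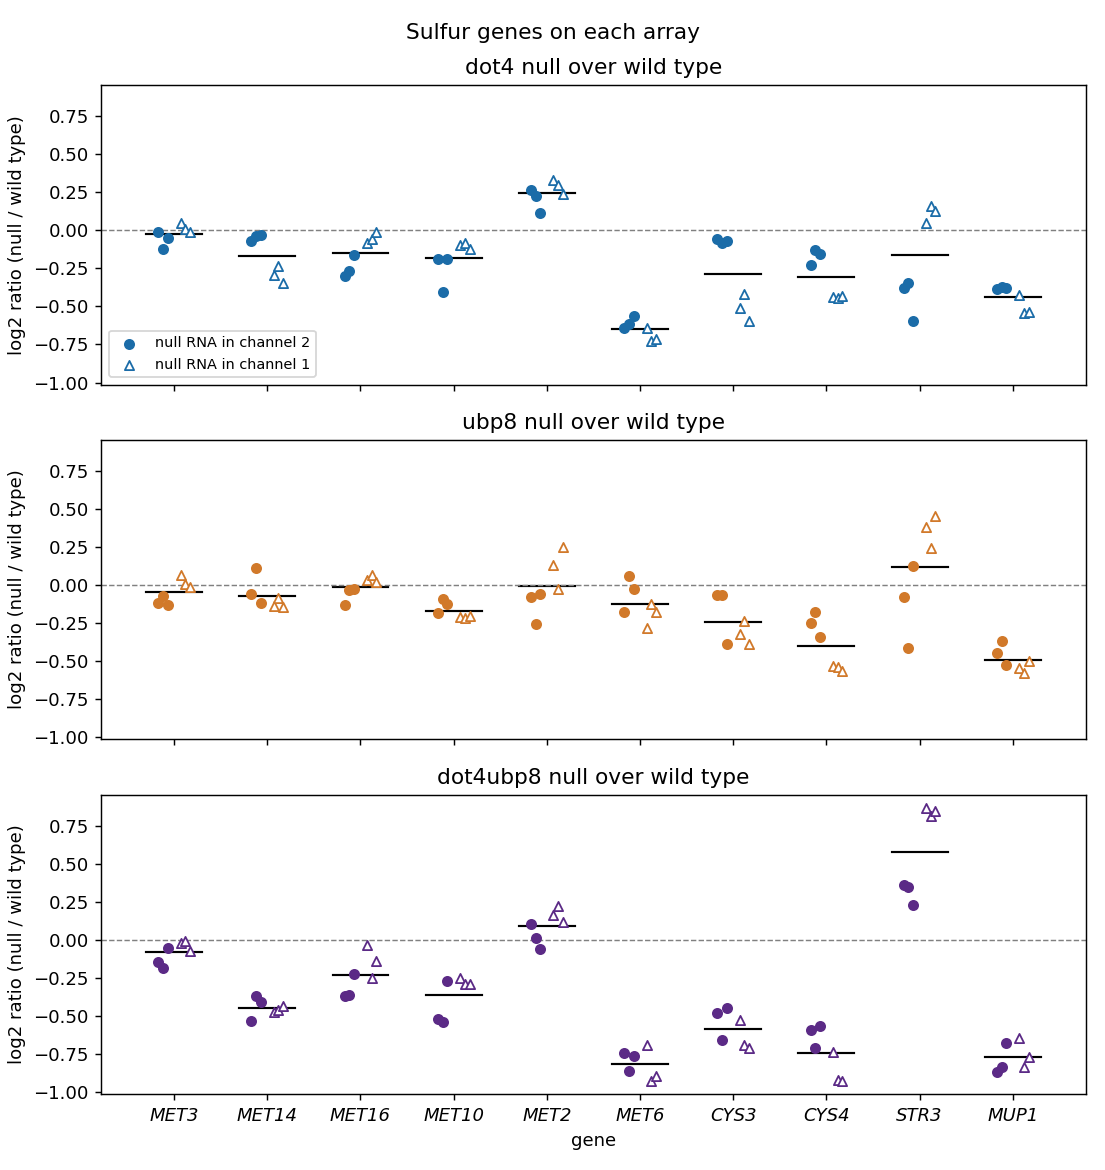
Log2 ratio of null over wild type on each of the 18 arrays for the 10 genes, with the dot4 null, ubp8 null and dot4ubp8 null in turn and the orientation of the null RNA marked by symbol and lines at the means. MET6 and MUP1 lie below 0 on all 6 dot4 null and all 6 dot4ubp8 null arrays, whereas STR3 is split by orientation in dot4 null cells, at -0.60 to -0.35 with the null RNA in channel 2 and 0.05 to 0.16 with it in channel 1.

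The first 4 enzymes of the pathway reduce sulfate. Met3, ATP sulfurylase, activates sulfate by joining it to AMP. The MET3 ratio on the dot4 null arrays had a lowest value of -0.12, a median of -0.01 and a highest value of 0.05. On the ubp8 null arrays these values were -0.13, -0.04 and 0.07, and on the dot4ubp8 null arrays -0.19, -0.06 and -0.01. The ratios lay on both sides of 0 in each single null, and below 0 on every dot4ubp8 null array. The fall in dot4ubp8 null cells was -0.08 ± 0.03 (limma adjusted p = 0.0143), the smallest called change of the group. It was lost without dot4ubp8 null set 2 (adjusted p = 0.0756) and with the null RNA in channel 1 alone (-0.03, adjusted p = 0.340).

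Met14, APS kinase, phosphorylates the product of Met3. MET14 set means were -0.18, -0.13 and -0.19 in dot4 null cells, -0.10, 0.01 and -0.13 in ubp8 null cells, and -0.50, -0.41 and -0.42 in dot4ubp8 null cells. The dot4ubp8 null sets lay below all sets of either single null. MET14 thus fell by 0.17 ± 0.03 in dot4 null cells (limma adjusted p = 0.00115) and by 0.45 ± 0.03 in dot4ubp8 null cells (adjusted p = 5.51e-07). The ubp8 null value of -0.07 ± 0.03 was not called (adjusted p = 0.0827), and was called once set 2 was left out (-0.11, adjusted p = 0.0234). The dot4 null change differed by orientation, at -0.04 with the null RNA in channel 2 (adjusted p = 0.453) and -0.29 with it in channel 1.

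Met16 reduces PAPS, the product of Met14, to sulfite. Its gene had set means of -0.19, -0.16 and -0.09 in dot4 null cells, -0.05, 0.02 and 0.00 in ubp8 null cells and -0.20, -0.31 and -0.18 in dot4ubp8 null cells. All sets of the dot4 null and the dot4ubp8 null were below all sets of the ubp8 null. MET16 fell in dot4 null cells (-0.15 ± 0.03, limma adjusted p = 0.00252) and in dot4ubp8 null cells (-0.23 ± 0.03, adjusted p = 7.52e-05). On the dot4 null arrays with the mutant RNA in channel 1 it averaged -0.05 (adjusted p = 0.283).

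MET10 encodes a subunit of sulfite reductase, which makes sulfide. Its set means were -0.14, -0.24 and -0.15 in dot4 null cells, -0.20, -0.15 and -0.16 in ubp8 null cells and -0.38, -0.41 and -0.28 in dot4ubp8 null cells. It was the only gene of sulfate reduction among the 10 that fell in all 3 genotypes, at -0.18 ± 0.03, -0.17 ± 0.03 and -0.36 ± 0.03 (limma adjusted p = 0.000656, 0.00119 and 2.50e-06). On single arrays MET10 was below 0 throughout, from a lowest value of -0.41 to a highest of -0.08 in dot4 null cells, from -0.21 to -0.09 in ubp8 null cells and from -0.54 to -0.25 in dot4ubp8 null cells. The ubp8 null call was lost on channel 2 arrays alone (-0.13, adjusted p = 0.107), and without centring neither that call (adjusted p = 0.0668) nor the dot4 null call (-0.09, adjusted p = 0.375) was made.

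MET2 and MET6 stand on either side of homocysteine. Met2, homoserine acetyltransferase, makes the carbon acceptor for sulfide, and Met6, the cobalamin-independent methionine synthase, methylates homocysteine to methionine. On the dot4 null arrays, MET2 had a lowest value of 0.12, a median of 0.25 and a highest of 0.33. The ubp8 null arrays ran from -0.25 over -0.04 to 0.25, and the dot4ubp8 null arrays from -0.06 over 0.11 to 0.23. Only the dot4 null lay above 0 on every array. MET2 rose there by 0.24 ± 0.04 (limma adjusted p = 0.000624). The ubp8 null value was -0.01 ± 0.04 (adjusted p = 0.913). The dot4ubp8 null value was 0.09 ± 0.04 (adjusted p = 0.0725), and was called once dot4ubp8 null set 3 (0.13, adjusted p = 0.0489) or ubp8 null set 2 (adjusted p = 0.0305) was left out, or the array bearing the ubp8 null strain number (0.12, adjusted p = 0.0232). It was also called on channel 1 arrays alone (0.17, adjusted p = 0.00950) and with single arrays and a dye term (adjusted p = 0.0263). On channel 2 arrays it averaged 0.02.

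MET6 read -0.64, -0.67 and -0.64 in the 3 dot4 null sets, -0.23, -0.03 and -0.10 in the ubp8 null sets and -0.72, -0.89 and -0.83 in the dot4ubp8 null sets. Every dot4 null and dot4ubp8 null array lay between -0.92 and -0.56, below the lowest ubp8 null array at -0.28. The decrease was 1.57-fold in dot4 null cells (-0.65 ± 0.04, limma adjusted p = 4.32e-07) and 1.76-fold in dot4ubp8 null cells (-0.81 ± 0.04, adjusted p = 3.29e-08), the largest of the 10 genes in both genotypes. In the ubp8 null the change was -0.12 ± 0.04 (adjusted p = 0.0250). It was no longer called without ubp8 null set 1 (-0.07, adjusted p = 0.231) or set 3 (-0.13, adjusted p = 0.0566), nor with the null RNA in channel 2 alone (-0.05, adjusted p = 0.435).

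CYS4 and CYS3 encode the pair of enzymes that turns homocysteine into cysteine, cystathionine beta-synthase and cystathionine gamma-lyase. CYS4 set means were -0.33, -0.29 and -0.29 in dot4 null cells, -0.39, -0.36 and -0.45 in ubp8 null cells and -0.66, -0.81 and -0.75 in dot4ubp8 null cells. All 18 arrays were below 0, and the sets of the dot4ubp8 null were below those of both single nulls. CYS4 fell by 0.30 ± 0.03 in dot4 null cells, 0.40 ± 0.03 in ubp8 null cells and 0.74 ± 0.03 in dot4ubp8 null cells, where the decrease was 1.67-fold. CYS3 followed with set means of -0.28, -0.25 and -0.34 in dot4 null cells, -0.19, -0.15 and -0.38 in ubp8 null cells and -0.50, -0.67 and -0.58 in dot4ubp8 null cells. Its falls were 0.29 ± 0.05, 0.24 ± 0.05 and 0.58 ± 0.05. The size of both genes' ratios moved with orientation in the single nulls. CYS3 in dot4 null cells averaged -0.07 with the null RNA in channel 2 (adjusted p = 0.375 in the limma fit of that orientation) and -0.51 with it in channel 1, and in ubp8 null cells the channel 2 value of -0.17 was not called either (adjusted p = 0.0592).

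STR3 encodes cystathionine beta-lyase, which runs in the other direction, from cystathionine to homocysteine. In the dot4ubp8 null its set means were 0.61, 0.58 and 0.54, against -0.16, -0.09 and -0.24 in dot4 null cells and 0.15, -0.08 and 0.29 in ubp8 null cells. All 6 dot4ubp8 null arrays were above 0, from 0.23 to 0.87. STR3 rose by 0.58 ± 0.06 in dot4ubp8 null cells (limma adjusted p = 4.70e-06) and was called higher in each orientation on its own, at 0.31 in channel 2 and 0.84 in channel 1. The value for the dot4 null was -0.16 ± 0.06 (adjusted p = 0.0268), and this call did not hold. With the null RNA in channel 2 STR3 averaged -0.44, and with it in channel 1 it averaged 0.11 and was called higher (adjusted p = 0.0308). It was also lost without dot4 null set 1 (adjusted p = 0.0842) or set 3 (adjusted p = 0.153), and without the dot4ubp8 null array bearing the ubp8 null strain number (adjusted p = 0.0629). In the ubp8 null 0.12 ± 0.06 was not called (adjusted p = 0.0884), and became a rise of 0.22 without set 2 (adjusted p = 0.00327). The ubp8 null value also turned sign with orientation. It averaged -0.12 with the null RNA in channel 2, and 0.36 with it in channel 1, where it was called higher (adjusted p = 4.51e-05).

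MUP1, the high-affinity methionine permease, fell in all 3 genotypes and in both orientations. Its set means were -0.41, -0.46 and -0.46 in dot4 null cells, -0.49, -0.47 and -0.51 in ubp8 null cells and -0.76, -0.83 and -0.72 in dot4ubp8 null cells. Its arrays ran from -0.54 to -0.37 in dot4 null cells, from -0.58 to -0.37 in ubp8 null cells and from -0.87 to -0.65 in dot4ubp8 null cells, so that the dot4ubp8 null did not overlap either single null. The falls were 0.44 ± 0.03, 0.49 ± 0.03 and 0.77 ± 0.03, the last a 1.71-fold decrease (limma adjusted p = 3.72e-09). The ubp8 null value was the lowest of the 10 genes in that genotype.

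Calls were also made in each orientation. With each orientation fitted alone, 5 genes were called the same way in both in dot4 null cells (MET10, MET2, MET6, CYS4 and MUP1), and CYS4 and MUP1 alone in ubp8 null cells. In the dot4ubp8 null 8 were called the same way in both, namely STR3 and the 7 genes MET14, MET16, MET10, MET6, CYS3, CYS4 and MUP1. Of all 6205 ORFs, 28% were called the same way in both orientations in dot4 null cells, 24.2% in ubp8 null cells and 46% in dot4ubp8 null cells, so that the 2 of 10 in ubp8 null cells were near the background. The sign of the mean was the same in both orientations for 8, 6 and 10 genes in the dot4, ubp8 and dot4ubp8 null. Sign alone was not counted over all ORFs, so these counts have no background beside them.

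The dot4 null was next compared with the ubp8 null within the same fit. MET2 was 0.25 ± 0.06 higher in dot4 null cells, and MET6 (-0.53 ± 0.06), STR3 (-0.29 ± 0.08) and MET16 (-0.14 ± 0.05) were lower, so that 1 gene was called higher and 3 lower. Over all ORFs 27.9% were called higher and 30.2% lower in this contrast. MET6 had the largest difference, and every dot4 null array was below every ubp8 null array. The MET16 difference was lost when any 1 of 4 sets was left out (adjusted p = 0.0573 to 0.0923 without dot4 null set 1 or 2, or ubp8 null set 2 or 3). This difference was also lost without centring (-0.03, adjusted p = 0.855) and on channel 1 arrays alone (-0.09, adjusted p = 0.181). That of STR3 was lost without centring (-0.18, adjusted p = 0.209) and on channel 2 arrays alone (-0.32, adjusted p = 0.0587), and that of MET2 on channel 1 arrays alone (0.17, adjusted p = 0.0539). For CYS4 (0.09, 95% interval -0.01 to 0.19), CYS3 (-0.05, interval -0.19 to 0.10) and MUP1 (0.05, interval -0.03 to 0.14) no difference was called in this fit. With arrays scaled to a common spread, CYS4 (0.17, adjusted p = 0.0137) and MUP1 (0.16, adjusted p = 0.00775) were called higher in dot4 null cells, as was CYS4 with single arrays and a dye term (adjusted p = 0.0429), and CYS3 was called lower on channel 1 arrays alone (-0.19, adjusted p = 0.0287).

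In the dot4ubp8 null 6 of the 10 genes were lower than in dot4 null cells and STR3 was higher, with 29.2% of all ORFs lower and 29% higher. The differences of the 6 were -0.44 ± 0.05 for CYS4, -0.33 ± 0.04 for MUP1, -0.30 ± 0.06 for CYS3, -0.28 ± 0.05 for MET14, -0.18 ± 0.05 for MET10 and -0.16 ± 0.06 for MET6. That of STR3 was 0.74 ± 0.08, the largest in either direction. The MET6 difference (limma adjusted p = 0.0324) was lost without any 1 of the 3 dot4 null sets or without dot4ubp8 null set 2 or 3, with adjusted p between 0.0583 and 0.123. It was also lost with arrays scaled to a common spread (-0.07, adjusted p = 0.341), without centring (-0.25, adjusted p = 0.0612) and on channel 1 arrays alone (-0.14, adjusted p = 0.0980). The CYS3 difference was lost on channel 1 arrays alone (-0.13, adjusted p = 0.111), and that of MET10 on channel 2 arrays alone (-0.18, adjusted p = 0.101). MET2 was not called (-0.15 ± 0.06, adjusted p = 0.0575), though it was lower without dot4 null set 3 (adjusted p = 0.0494) or ubp8 null set 2 (0.0240) or 3 (0.0390). It was also called lower with single arrays and a dye term (adjusted p = 0.0183).

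Against the ubp8 null, 7 genes were lower in dot4ubp8 null cells and STR3 was again higher, beside 21% of all ORFs lower and 23.2% higher. MET6 differed most (-0.69 ± 0.06). MET14 differed by -0.37 ± 0.05, CYS4 and CYS3 by -0.34 each, MUP1 by -0.28 ± 0.04, MET16 by -0.22 ± 0.05 and MET10 by -0.19 ± 0.05. STR3 differed by 0.46 ± 0.08. Without centring 4 of these decreases were called, and the calls of MET16, MET10 and MUP1 were lost. With arrays scaled to a common spread, MUP1 (-0.09, adjusted p = 0.138) and MET10 (-0.12, adjusted p = 0.0677) were not called, nor was MET10 on channel 1 arrays alone (-0.07, adjusted p = 0.170).

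The design also allows the dot4ubp8 null to be set against the sum of the single nulls. For 7 of the 10 genes no departure from the sum was called. CYS4 was at -0.74 in dot4ubp8 null cells beside a sum of -0.70 (difference -0.04, 95% interval -0.16 to 0.09), MET10 at -0.36 beside -0.35 (-0.01, interval -0.13 to 0.12), and MET6 at -0.81 beside -0.77 (-0.04, interval -0.20 to 0.12). STR3 departed upwards, at 0.58 in dot4ubp8 null cells beside a sum of -0.04, a difference of 0.62 ± 0.10 (95% interval 0.40 to 0.84, limma adjusted p = 0.00229). MUP1 fell less than the sum (0.16 ± 0.05, adjusted p = 0.0393), and MET14 fell more (-0.21 ± 0.06, adjusted p = 0.0288). Calls over all ORFs in this contrast were 11.9% higher and 8.43% lower. The STR3 difference was called under every alternative tried. The MUP1 call was lost without any 1 of the 9 sets other than dot4ubp8 null set 2 (adjusted p 0.0515 to 0.104) and without the array bearing the ubp8 null strain number (0.0522). The MET14 call was lost without any dot4 null set, ubp8 null set 2 or dot4ubp8 null set 1 (adjusted p 0.0538 to 0.0824). Neither call was made without centring (adjusted p = 0.841 for MUP1 and 0.327 for MET14), nor MUP1 on channel 2 arrays alone (0.774), nor MET14 on channel 1 arrays alone (0.572) or with arrays scaled to a common spread (0.113).

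**Figure D2:**
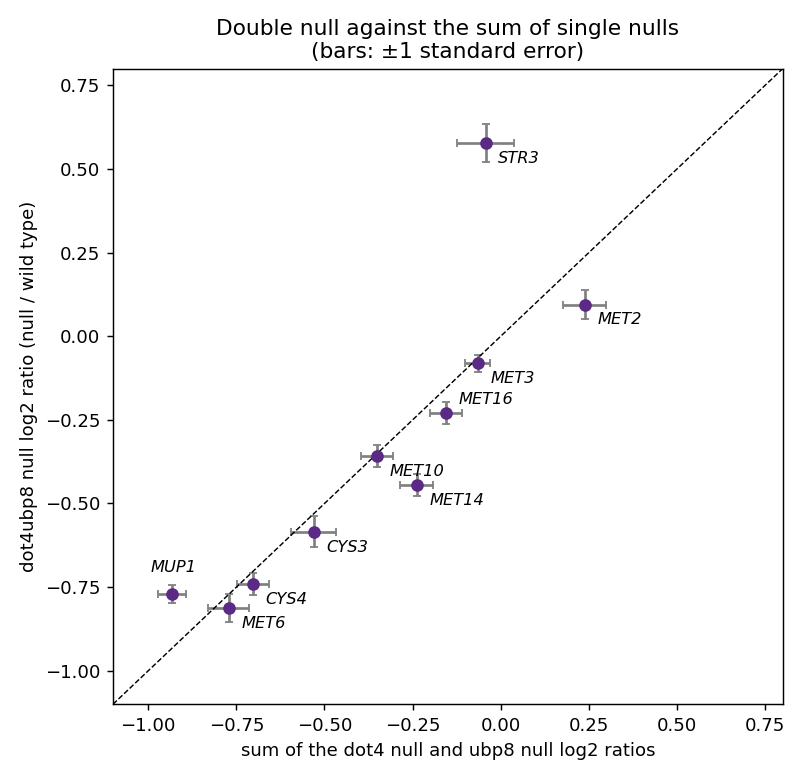
Log2 ratio of the dot4ubp8 null over wild type (vertical axis) against the sum of the log2 ratios of the dot4 null and the ubp8 null (horizontal axis) for the 10 genes, with standard errors as bars and a line of equality. CYS4, MET6 and MET10 lie along the line, and STR3 stands above it at 0.58 beside a sum of -0.04.

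The other genes of the pathway were read from lists that cover 38 further ORFs. In the dot4 null 11 of the 38 rose and 18 fell, in ubp8 null cells 13 rose and 13 fell, and in dot4ubp8 null cells 11 rose and 23 fell, with medians of -0.04, -0.03 and -0.17. These counts were 28.9% higher and 47.4% lower in dot4 null cells, 34.2% each way in ubp8 null cells, and 28.9% higher and 60.5% lower in dot4ubp8 null cells. Over all ORFs the shares were 29.9% and 32.1%, 30% and 28.7%, and 35.3% and 35.2%, so that the ubp8 null counts were near the background. The shares over all ORFs also apply to the smaller lists that follow. Of the 4 other genes of sulfate reduction, 3 fell and none rose in dot4 null cells, 2 rose and 1 fell in ubp8 null cells, and 2 rose and 2 fell in dot4ubp8 null cells. MET5, the other sulfite reductase subunit, fell by 0.44 ± 0.03 in dot4 null cells, 0.08 ± 0.03 in ubp8 null cells and 0.26 ± 0.03 in dot4ubp8 null cells. MET22, a phosphatase of the PAP that Met16 releases, fell by 0.46 ± 0.04 in dot4 null cells and 0.47 ± 0.04 in dot4ubp8 null cells. MET8, which serves the siroheme cofactor of sulfite reductase, was lower in dot4 null cells (-0.21 ± 0.04) and higher in ubp8 null cells (0.25 ± 0.04) and dot4ubp8 null cells (0.14 ± 0.04).

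Of the 4 other genes of homocysteine and methionine synthesis, 1 rose and 3 fell in dot4 null cells, 2 fell in ubp8 null cells, and 1 rose and 3 fell in dot4ubp8 null cells. MET17, the sulfhydrylase that joins sulfide to the product of Met2, rose with MET2 in dot4 null cells, by 0.50 ± 0.03, with channel 2 and channel 1 means of 0.52 and 0.49. It was at -0.02 ± 0.03 in ubp8 null cells (limma adjusted p = 0.633) and rose by 0.16 ± 0.03 in dot4ubp8 null cells. STR2, cystathionine gamma-synthase, rose by 0.19 ± 0.03 in dot4 null cells and 0.25 ± 0.03 in dot4ubp8 null cells. IRC7, a cysteine beta-lyase, was higher in dot4 null cells (0.29 ± 0.10), lower in ubp8 null cells (-0.43 ± 0.10) and not called in dot4ubp8 null cells (-0.24 ± 0.10, adjusted p = 0.0541).

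Uptake genes did not move together. All 4 genes for uptake of methionine and related compounds, MUP1 included, fell in dot4 null cells and in dot4ubp8 null cells, and 3 of the 4 in ubp8 null cells. SAM3, the S-adenosylmethionine permease, was at -0.54 ± 0.03 in dot4 null cells, -0.27 ± 0.03 in ubp8 null cells and -0.56 ± 0.03 in dot4ubp8 null cells, and MMP1, the S-methylmethionine permease, was at -0.35 ± 0.04, -0.40 ± 0.04 and -0.38 ± 0.04. These 2 genes are paralogs, and probes may not tell such pairs apart. Of 5 genes listed for uptake of sulfate and other sulfur compounds, 3 rose in dot4 null cells and 4 in each of the other genotypes. SEO1, a permease-family gene, rose most in dot4ubp8 null cells (1.02 ± 0.08). In the dot4 null SEO1 rose by 0.28 ± 0.08, with orientation means of -0.14 in channel 2 and 0.69 in channel 1. SOA1, another of these rises, also turned sign in dot4 null cells (-0.08 in channel 2 and 0.33 in channel 1). So did SEO1 in ubp8 null cells (-0.08 and 0.55), where YCT1 averaged 0.02 in channel 2 and 0.28 in channel 1. The sulfate permease gene SUL1 was near 0 in dot4 null cells (0.01 ± 0.04) and ubp8 null cells (0.02 ± 0.04) and rose by 0.17 ± 0.04 in dot4ubp8 null cells, while SUL2 fell in dot4 null cells (-0.18 ± 0.04), rose in ubp8 null cells (0.10 ± 0.04) and was not called in dot4ubp8 null cells (-0.04 ± 0.04, adjusted p = 0.334).

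Downstream of methionine, 4 of the 5 genes of the S-adenosylmethionine cycle fell in dot4 null cells, 4 in ubp8 null cells and 5 in dot4ubp8 null cells. SAM2, an S-adenosylmethionine synthetase with a close paralog in SAM1, fell by 0.51 ± 0.04 in dot4 null cells and 0.57 ± 0.04 in dot4ubp8 null cells, and was at -0.05 ± 0.04 in ubp8 null cells (limma adjusted p = 0.363). MHT1, a homocysteine methyltransferase, fell by 0.46 ± 0.04, 0.11 ± 0.04 and 0.23 ± 0.04 in the dot4, ubp8 and dot4ubp8 null. GSH1, the first enzyme of glutathione synthesis, fell by 0.51 ± 0.03 in dot4 null cells and 0.70 ± 0.03 in dot4ubp8 null cells and rose by 0.09 ± 0.03 in ubp8 null cells. The 5 genes of glutathione and thioredoxin gave 4 decreases in dot4 null cells, 3 increases in ubp8 null cells and 4 decreases in dot4ubp8 null cells. None of the 3 folate branch genes was called in dot4 null cells, whereas 1 rose and 2 fell in ubp8 null cells and 2 fell in dot4ubp8 null cells. Of 5 methionine salvage genes, 3 rose in dot4 null cells, 2 rose and 1 fell in ubp8 null cells, and 1 rose and 4 fell in dot4ubp8 null cells. PDC6 and JLP1, a pyruvate decarboxylase isozyme and a sulfonate dioxygenase that are both induced when sulfur is short, rose in dot4 null cells (0.41 ± 0.11 and 0.28 ± 0.05) and in dot4ubp8 null cells (0.79 ± 0.11 and 0.58 ± 0.05). In the ubp8 null JLP1 rose by 0.20 ± 0.05 and PDC6 was at 0.19 ± 0.11 (adjusted p = 0.146). The rises in the single nulls were uneven between orientations. Channel 2 and channel 1 means of JLP1 were -0.01 and 0.56 in dot4 null cells and -0.04 and 0.44 in ubp8 null cells, and those of PDC6 were 0.11 and 0.72 in dot4 null cells. PDC6 also varied widely in dot4ubp8 null cells, with set means of 1.13, 0.40 and 0.84 and arrays from -0.28 to 1.57.

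**Figure D3:**
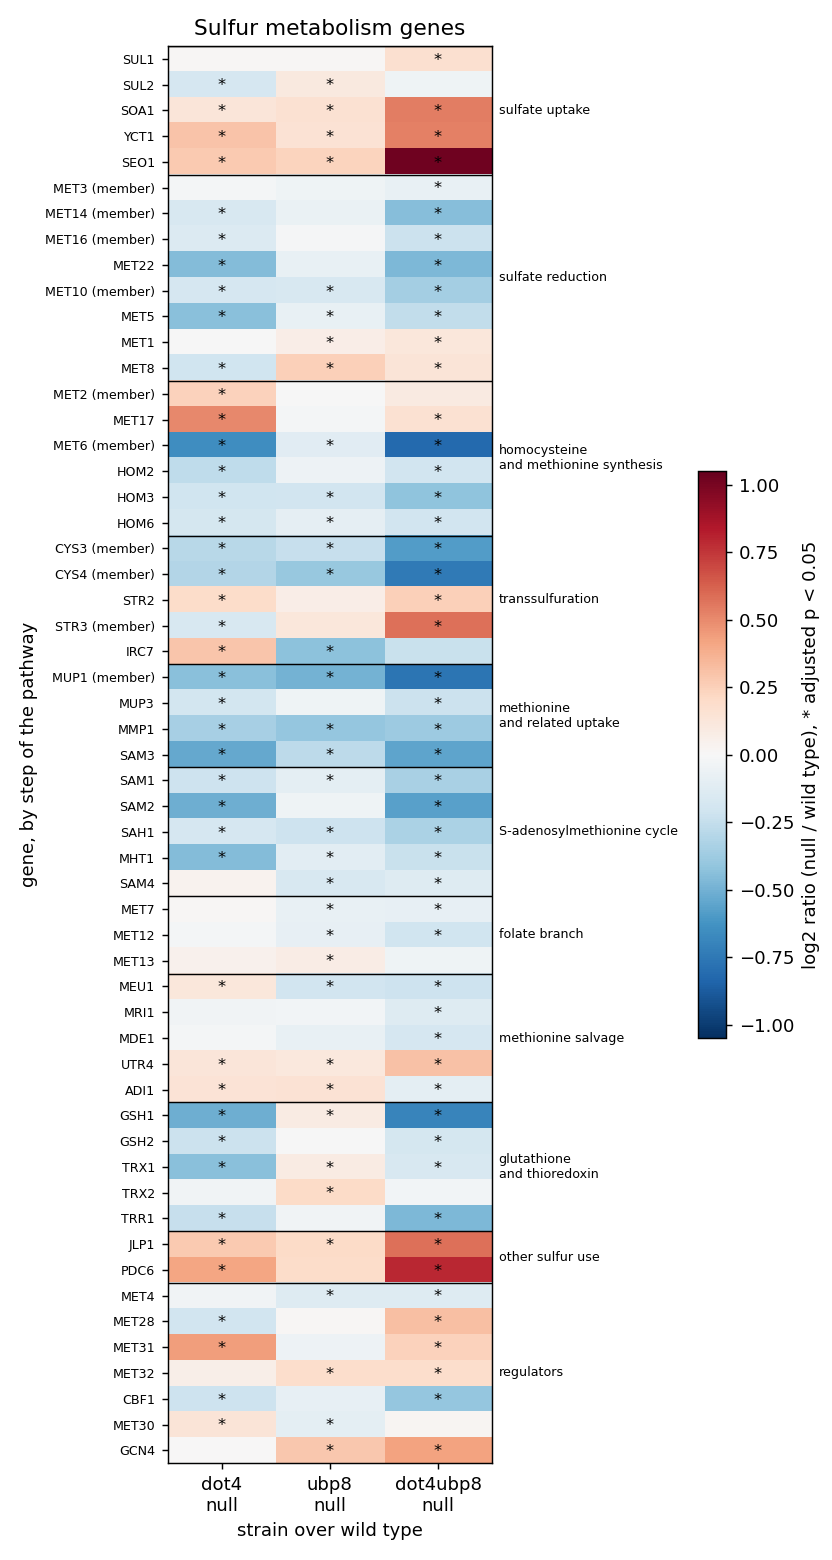
Log2 ratios of null over wild type for the listed sulfur genes, grouped by step of the pathway, with 1 column for each genotype and a colour scale centred on 0, and asterisks at called values. MET6, CYS4 and MUP1 are among the deepest decreases in dot4ubp8 null cells (-0.81, -0.74 and -0.77), and SEO1, PDC6, JLP1 and STR3 among its largest increases (1.02, 0.79, 0.58 and 0.58).

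Of 7 regulators, 2 rose and 2 fell in dot4 null cells, 2 rose and 2 fell in ubp8 null cells, and 4 rose and 2 fell in dot4ubp8 null cells. Of all ORFs, 29.9% rose and 32.1% fell in dot4 null cells and 30% and 28.7% did so in ubp8 null cells, near the shares of the regulators (28.6% each way in both), and in dot4ubp8 null cells 35.3% rose and 35.2% fell. MET4, the activator, was at -0.03 ± 0.03 in dot4 null cells (limma adjusted p = 0.310) and fell by 0.14 ± 0.03 in the ubp8 null and the dot4ubp8 null. CBF1 fell by 0.22 ± 0.03 in dot4 null cells and 0.41 ± 0.03 in dot4ubp8 null cells, with -0.08 ± 0.03 in ubp8 null cells (adjusted p = 0.0551). MET31 rose in dot4 null cells (0.44 ± 0.03) and dot4ubp8 null cells (0.24 ± 0.03), and its partner MET32 rose by 0.18 ± 0.03 in the ubp8 null and the dot4ubp8 null. MET28, which stabilises Met4 on DNA, fell by 0.20 ± 0.05 in dot4 null cells and rose by 0.32 ± 0.05 in dot4ubp8 null cells, but its dot4 null orientation means were -0.46 and 0.06. MET30 rose by 0.13 ± 0.02 in dot4 null cells, fell by 0.11 ± 0.02 in ubp8 null cells and was at 0.02 ± 0.02 in dot4ubp8 null cells (adjusted p = 0.475).

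Genes of the general amino acid control, which answers amino acid shortage through Gcn4, are an adjacent biosynthetic group. Of 18 listed, 1 rose and 13 fell in dot4 null cells, 2 rose and 12 fell in ubp8 null cells, and 4 rose and 13 fell in dot4ubp8 null cells, with medians of -0.21, -0.13 and -0.23. The shares of all ORFs that fell were 32.1%, 28.7% and 35.2%. HIS4 of histidine synthesis fell in all 3 genotypes (-0.48 ± 0.04, -0.50 ± 0.04 and -0.73 ± 0.04). ARG1 of arginine synthesis fell by 0.82 ± 0.06 in dot4 null cells and rose by 0.19 ± 0.06 in dot4ubp8 null cells. ARG3, also of arginine synthesis, rose by 0.59 ± 0.05 in dot4ubp8 null cells, and ILV5 of branched chain amino acids fell by 0.53 ± 0.05 there. LYS1 of lysine synthesis rose by 0.29 ± 0.03 in ubp8 null cells and 0.31 ± 0.03 in dot4ubp8 null cells. In the ubp8 null ARG3 rose by 0.19 ± 0.05 and HIS1 fell by 0.26 ± 0.03, and the increase in dot4 null cells was LYS9, at 0.13 ± 0.02. That ARG3 rise turned sign with orientation, at -0.10 with the null RNA in channel 2 and 0.48 with it in channel 1. LYS2, counted as a fall in all 3 genotypes, averaged -0.73, -0.79 and -0.74 in channel 2 but 0.38, 0.34 and 0.31 in channel 1. The falls of ARG3 and HIS1 in dot4 null cells and of TRP2 and ILV5 in ubp8 null cells also turned sign with orientation. GCN4 itself was at 0.01 ± 0.03 in dot4 null cells and rose in ubp8 null cells (0.28 ± 0.03) and dot4ubp8 null cells (0.43 ± 0.03).

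Within the 10 genes, 32 of the 45 pairs correlated positively over the 18 arrays. The highest value was that of MET14 and CYS3 (r = 0.87), and the lowest that of CYS4 and STR3 (r = -0.95). These arrays share the wild type strain and come in both orientations, so r is a description only. Positive pairs were not counted among other ORFs, so that count has no background beside it. Outside the sulfur lists, the 5 ORFs whose ratios over the 18 arrays were most like the mean of the 10 genes were ALG3 (r = 0.95), ICT1 (0.95), YDR274C (0.94), SPL2 (0.93) and YIM1 (0.92). SPL2, known from the phosphate pathway, was the lowest of these, at -1.12 ± 0.04 in dot4 null cells, -0.23 ± 0.04 in ubp8 null cells and -1.67 ± 0.04 in dot4ubp8 null cells. ALG3, a mannosyltransferase, read -0.21 ± 0.03, -0.12 ± 0.03 and -0.51 ± 0.03 in the same order, and ICT1, a lysophosphatidic acid acyltransferase, -0.21 ± 0.03, -0.08 ± 0.03 and -0.51 ± 0.03.

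The 20 ORFs adjacent to the 10 genes were read beside them. Of these neighbours 3 rose and 9 fell in dot4 null cells, 6 rose and 6 fell in ubp8 null cells, and 4 rose and 9 fell in dot4ubp8 null cells, with medians of -0.08, -0.04 and -0.06. As shares these were 15% higher and 45% lower, 30% and 30%, and 20% and 45%, beside 29.9% and 32.1%, 30% and 28.7%, and 35.3% and 35.2% of all ORFs. The ubp8 null shares of the neighbours were thus near the background. The neighbours named here were chosen after their values were seen. PTI1, next to CYS4, moved further than CYS4 itself, at -0.68 ± 0.07 in dot4 null cells, -0.63 ± 0.07 in ubp8 null cells and -1.30 ± 0.07 in dot4ubp8 null cells. PTI1 was below 0 on 17 of the 18 arrays, and at 0.14 on the ubp8 null array of set 3 with channel 2 holding the mutant RNA. TRP2, next to MET6, fell by 0.22, 0.13 and 0.44, and YGR054W, next to MUP1, was at -0.07 (limma adjusted p = 0.0639) in dot4 null cells and fell by 0.36 in ubp8 null cells and 0.46 in dot4ubp8 null cells. MND1, next to STR3, rose in all 3 (0.20, 0.28 and 0.46), and VPS1, next to MET14, fell in all 3 (-0.26, -0.09 and -0.33). Whether probes for adjacent ORFs read the same transcript was not tested.

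**Figure D4:**
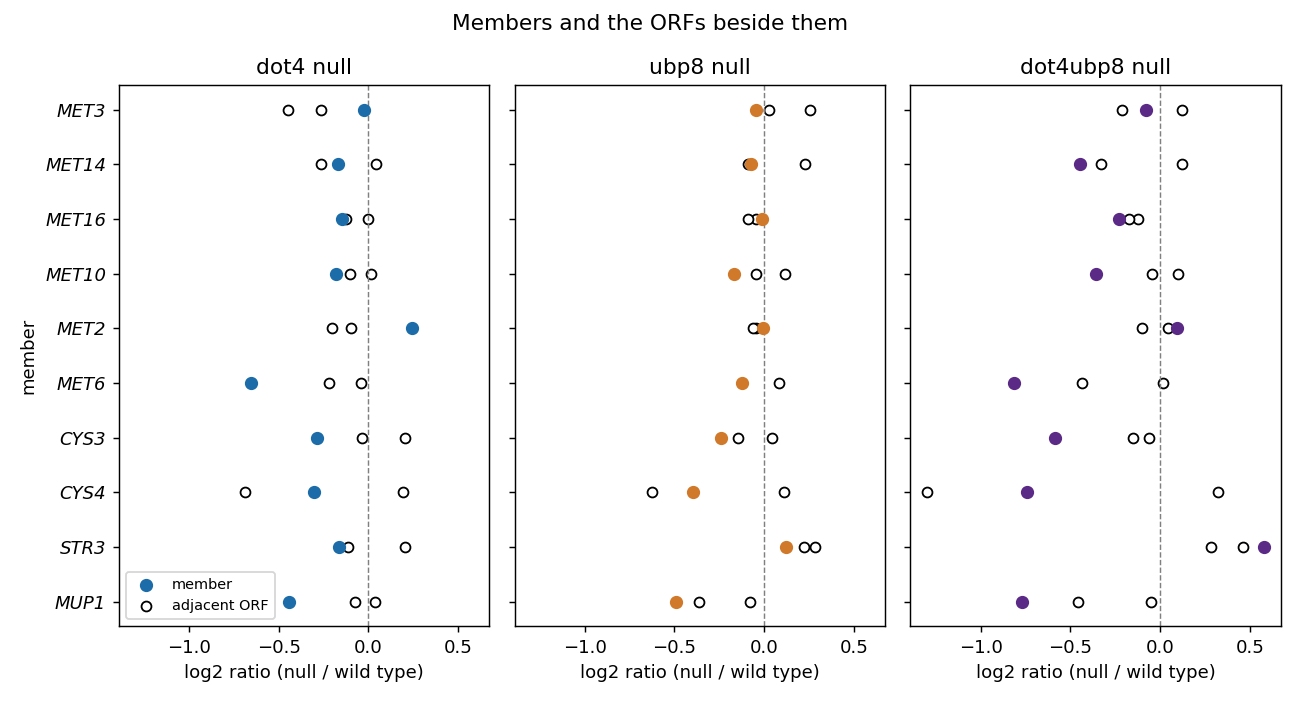
Log2 ratios of null over wild type for the 10 genes and for the ORF on each side of them, by genotype, with the 10 genes as filled points and the adjacent ORFs as open points. PTI1 beside CYS4 is the lowest point, at -1.30 in dot4ubp8 null cells, and MND1 beside STR3 lies above 0 in all 3 genotypes.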

How the data were processed

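The authors deposited 1 log2 ratio for each of 6205 ORFs on each of 18 arrays with 2 channels. How background and normalization were handled is not given in the sources used here. Channel intensities were not analysed, so signal over background is unknown, and precision is limited by the number of arrays. A stand-in value of 16.61 in 2 cells and 9 empty cells were treated as missing. Ratios were centred on each array's median and turned to null over wild type, and the 2 arrays of a set were averaged into 9 set means, 3 for each genotype. limma 3.58.1 in R 4.3.3 fitted genotype means with lmFit and eBayes over all ORFs, with Benjamini-Hochberg adjustment and 4 contrasts. Since every array carried wild type RNA, the spread of that strain was not separated. The fit was tested on simulated data. Symbols came from a RefSeq table (R64), which matched 5705 ORFs.

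The 10 genes and 12 lists were chosen with earlier results of these data known. Named without regard to value were the 10 genes, UBP10, UBP8, the regulators, MET17, STR2, SUL1, SUL2 and MET5. Also named were up to 6 called sulfur genes of largest change in each genotype, the 2 largest amino acid control genes in each direction, and the 5 ORFs most like the mean of the 10. Alternatives covered centring, scaling, orientation, a dye term, a replicate block, the spread and left-out sets.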

Additional observations from a re-analysis of the deposited data

Results flagged for a closer look

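Differences between genotypes that passed the limma threshold are collected here, all on the log2 scale. In the dot4 null minus the ubp8 null they were -0.14 for MET16, 0.25 for MET2, -0.53 for MET6 and -0.29 for STR3. For the dot4ubp8 null minus the dot4 null they were -0.28 for MET14, -0.18 for MET10, -0.16 for MET6, -0.30 for CYS3, -0.44 for CYS4, 0.74 for STR3 and -0.33 for MUP1. For the dot4ubp8 null minus the ubp8 null they were -0.37 for MET14, -0.22 for MET16, -0.19 for MET10, -0.69 for MET6, -0.34 for CYS3, -0.34 for CYS4, 0.46 for STR3 and -0.28 for MUP1. For the dot4ubp8 null minus the summed single nulls they were -0.21 for MET14, 0.62 for STR3 and 0.16 for MUP1.

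Among 30 groups of 6 arrays, 2 held an array far from the other 5, and chance marks about 1 in 20 groups. MET14 read 0.11 on the ubp8 null array of set 2 with the null RNA in channel 2, above the other 5. MET10 read -0.41 on the dot4 null array of set 2 with the null RNA in channel 2, below the other 5.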

How the results depend on the processing

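Without centring, 4 genes fell in the dot4 null (median -0.084, beside 0.083 over all ORFs) and 3 in the ubp8 null. ORFs called lower then numbered 563 in the dot4 null and 804 in the ubp8 null. The dot4 null minus the ubp8 null then had 1 decrease, the dot4ubp8 null minus the ubp8 null 4, and the dot4ubp8 null minus the sum 1 increase and 0 decreases. With arrays scaled to a common spread, the dot4ubp8 null median was -0.35, the dot4 null minus the ubp8 null had 3 increases, and the dot4ubp8 null minus the sum had 0 decreases. Calls over all ORFs were not counted for the contrasts under these alternatives. With null RNA in channel 1 alone, 2 genes rose in the dot4 null (median -0.20), 1 in the ubp8 null (median -0.16) and 2 in the dot4ubp8 null. Of all 6205 ORFs, 2106, 1963 and 2176 rose in that setting. The dot4ubp8 null minus the sum then had 0 decreases. STR3 in the dot4 null (0.11) and MET10 in the dot4 null minus the ubp8 null (0.11) then turned sign and were called. With null RNA in channel 2 alone, medians were -0.21 in the dot4 null and -0.13 in the ubp8 null. In the ubp8 null 2 genes then fell, beside 1117 of all ORFs. The dot4ubp8 null minus the sum had 1 increase. Single arrays with a dye term gave 1 increase in the ubp8 null, 2 in the dot4ubp8 null and 2 in the dot4 null minus the ubp8 null. Of all ORFs, 1848 then rose in the ubp8 null and 2224 in the dot4ubp8 null. Without the dot4ubp8 null array bearing the ubp8 null strain number, 2 genes rose in the dot4ubp8 null, beside 2206 of all ORFs. The dot4ubp8 null minus the sum then had 1 increase.

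With 1 set left out, medians ran from -0.19 to -0.17 in the dot4 null and from -0.14 to -0.063 in the ubp8 null. Increases numbered 0 to 1 in the ubp8 null and 1 to 2 in the dot4ubp8 null. Over all ORFs, 1346 to 1932 rose in the ubp8 null and 2024 to 2216 in the dot4ubp8 null. The dot4ubp8 null minus the sum had 1 to 2 increases and 0 to 1 decreases. Whether set numbers are shared between genotypes is not stated in the labels. Deviations of sets with the same number correlated at -0.26 to 0.27, and 4 of 9 set means correlated best with their own number. With 3 sets for each genotype, these values cannot decide whether the sets were paired. With the set number as a replicate block, the dot4ubp8 null minus the sum had 1 increase (MUP1 adjusted p = 0.0517) and the MET6 difference between the dot4ubp8 null and the dot4 null was lost (adjusted p = 0.0552). No other call on the 10 genes changed under the block. The cause of these changes was not tested. Of 570 values for single genes in the genotypes, 538 kept their side of the threshold, 21 lost the call, 10 gained it and 1 turned sign. Of 720 in the contrasts 664, 46, 9 and 1 did so. A turned sign was counted only for values called in either fit. Uncalled values that changed sign, such as MET2 in the ubp8 null, thus count among those that kept their side.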

Other observations

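Of the listed sulfur genes, 10 lie among the 13 outermost measured ORFs of a chromosome arm, counted by systematic number, a limit chosen after the values were seen. In dot4ubp8 null cells 5 of them rose, 4 fell and 1 was not called, beside 35.3% of all ORFs higher and 35.2% lower. The increases were those of SEO1 (number 3 from its end, 1.02), SUL1 (number 9, 0.17), JLP1 (number 11, 0.58), SOA1 (number 12, 0.54) and YCT1 (number 13, 0.53). SOA1 and YCT1 encode transporters of sulfur compounds. MHT1 (number 6) fell by 0.23, MMP1 (number 7) by 0.38, SAM3 (number 9) by 0.56 and SAM4 (number 10) by 0.14, and IRC7 (number 3) was at -0.24 (limma adjusted p = 0.0541). STR3, which also rose, is number 81 on its arm. Whether position bears on these values was not tested.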
